A study of Mus musculus with 70 samples.

Results

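The matrix metalloproteinases (MMPs), the secreted ADAMTS proteinases and the tissue inhibitors of metalloproteinases (TIMPs) were followed after 2 kinds of bone injury in mice. The members were every gene whose symbol is Mmp with a number and at most 1 letter, Adamts with a number, or Timp with a number from 1 to 4. This gave 46 genes, of which 23 were Mmp, 19 Adamts and 4 Timp, among 47490 gene names with RPKM values (reads scaled to gene length and to the mapped reads of the library) in the femur tables and 46855 in the ulna tables. Adamts-like genes, which encode no protease, were not members.

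All samples came from female C57BL/6 mice aged 12 weeks. The injured groups were femora at 4 h, 1, 3, 7 and 14 d after a full fracture and ulnae at 4 h, 1, 3, 5 and 7 d after a stress fracture, and the uninjured left femora and left ulnae served as intact controls. Each fractured femur group had 5 libraries, with 10 of intact femur. The stress-fractured ulna groups had 5, 4, 5, 5 and 4 libraries in order of time, with 9 of intact ulna. The ulna times were read from the names of the deposited tables. RNA came from a 7 mm section of femur around the injury, with the marrow spun out, or a 5 mm section of ulna, in which the labels name no such step. No transgene or drug was used according to the labels. Since the bone, the section and the injury differ together, an effect of the bone and one of the type of fracture cannot be told apart.

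MMPs are zinc-dependent endopeptidases that cut collagens and other matrix proteins, most of them secreted as inactive proenzymes and some anchored to the cell membrane. ADAMTS proteinases are secreted enzymes with thrombospondin repeats; one branch cuts aggrecan and versican, another trims the amino-terminal propeptide of fibrillar procollagens. TIMPs bind the active site of MMPs and of some ADAMTS enzymes, and Timp3 is itself bound to the matrix. In a healing long bone Mmp13 is known from hypertrophic cartilage and osteoblasts, Mmp9 from osteoclasts and neutrophils, and Mmp2 and Mmp14 from mesenchymal cells of the callus.

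Of the 23 Mmp genes, 10 lie side by side within 427.1 kb of mouse chromosome 9 (GRCm38, 9:7272514-7699585), and the other 13 lie elsewhere. The promoters of 4 genes of this cluster are shown here because their RNA did not all take the same course after injury, although they are neighbours. Each is the 300 bases from 250 before to 50 after the transcription start in RefSeq's GRCm38.p6 annotation, on the plus strand, written 5′ to 3′. Capitals mark matches on either strand to the AP-1 word TGAGTCA (or its reverse complement TGACTCA) and to the RUNX word AACCACA (or TGTGGTT).
Mmp13 (chr9:7272264-7272563): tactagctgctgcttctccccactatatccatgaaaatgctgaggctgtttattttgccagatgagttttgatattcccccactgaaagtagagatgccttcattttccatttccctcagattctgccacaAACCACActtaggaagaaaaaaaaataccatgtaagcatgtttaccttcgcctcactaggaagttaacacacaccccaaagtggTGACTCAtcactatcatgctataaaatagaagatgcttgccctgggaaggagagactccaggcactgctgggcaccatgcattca
Mmp3 (chr9:7445572-7445871): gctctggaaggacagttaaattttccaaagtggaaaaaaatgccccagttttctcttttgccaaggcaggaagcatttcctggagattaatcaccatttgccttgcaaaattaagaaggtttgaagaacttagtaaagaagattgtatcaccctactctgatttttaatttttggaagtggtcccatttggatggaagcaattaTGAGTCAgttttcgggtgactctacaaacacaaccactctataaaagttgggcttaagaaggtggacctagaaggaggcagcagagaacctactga
Mmp12, second start (chr9:7347124-7347423): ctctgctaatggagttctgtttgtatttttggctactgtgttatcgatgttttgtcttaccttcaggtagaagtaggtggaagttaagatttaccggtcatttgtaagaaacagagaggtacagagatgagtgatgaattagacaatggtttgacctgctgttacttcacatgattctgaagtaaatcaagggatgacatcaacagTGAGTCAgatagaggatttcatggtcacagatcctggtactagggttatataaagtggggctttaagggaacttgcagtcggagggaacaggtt
Mmp8 (chr9:7558179-7558478): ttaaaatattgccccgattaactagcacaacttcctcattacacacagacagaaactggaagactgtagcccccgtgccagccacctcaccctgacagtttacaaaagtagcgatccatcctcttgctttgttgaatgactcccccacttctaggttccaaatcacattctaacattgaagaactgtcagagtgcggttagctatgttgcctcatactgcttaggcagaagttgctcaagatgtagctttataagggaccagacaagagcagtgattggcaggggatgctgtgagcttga
Mmp13, a collagenase, held an AP-1 match that began 35 bases before the start and a RUNX match 119 bases before it. Mmp3, a stromelysin, held an AP-1 match at 46 bases before the start, and Mmp12, the macrophage metalloelastase, held one at 44 bases before its second start. The Mmp8 window, of the neutrophil collagenase, held neither word, which says only that these letters are not in these 300 bases. A window was at hand for 32 of the 46 members. Of these 32 members, 7 held an AP-1 match, all 7 of them in the chromosome 9 cluster (also Mmp10, Mmp1a, Mmp1b and Mmp7), against 5.2% of 32851 promoter windows of that length in the same table. RUNX matches were in 3 members (Mmp13, Mmp27 and Mmp7) and 5.27% of all windows, and the TATA word TATAAA was in 10 members and 8.32% of all windows. A match describes the sequence and is no evidence of binding.

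The 67 libraries held 8.12 to 30.8 M (mega) reads on named genes, with a median of 16.4 M, as recovered from the steps of the RPKM values. Levels below are scaled RPKM, in which the libraries of a bone were brought to a common scale by the median ratio over genes. Within groups the log2 values of libraries correlated at 0.957 to 0.981. Bone was the labelled tissue, and the summed level of the osteoblast and osteocyte markers was 243.5 to 4458 scaled RPKM over the libraries, with none of these markers at 0 throughout. A few libraries stood apart from their group: fractured femur library 1 at 4 h and library 4 at 1 d had the highest sums of hypertrophic chondrocyte markers at those times, at 289.2 and 167.8 scaled RPKM, and femur library 1 at 7 d stood apart in erythroid markers. In ulna at 7 d library 4 was low in chondrocyte markers, with a score (mean log2 difference from intact ulna over the markers) of 1.10 where the others had 2.88 to 3.44, and library 5 in skeletal muscle markers, at -1.43 where the others had -0.60 to -0.24. In whole bone, fewer cells of a type and less RNA per cell cannot be told apart. The labels do not tie the columns to animals, so p-values measure the spread between these libraries.

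After full fracture more of the family was lower than higher at first, and most of it was higher later. Differences are between group means of log2(scaled RPKM + 0.1), given ± SE and tested with limma over all genes expressed in a bone and called at a Benjamini-Hochberg adjusted p under 0.05. This filter left 37 members in femur, of 19966 genes tested. At 4 h after full fracture 8 of these 37 were higher and 20 lower than in intact femur, where 56.7% of all genes tested were called. At 1 d 12 were higher and 15 lower, with 51.5% of all genes called. By 3 d the balance had turned, with 20 higher and 10 lower among the members and 56.8% of all genes called. At 7 d 21 were higher and 8 lower, with 66.1% of all genes called, and at 14 d 27 were higher and 7 lower, with 55.9% of all genes called. Among all genes the called ones were split almost evenly, with 28.3, 26.7, 28.8, 32.5 and 28.9% higher and 28.5, 24.8, 28, 33.6 and 27% lower at the 5 times. The median log2 difference over the tested members was -0.55, -0.34, 0.62, 0.90 and 0.84 at those times, beside -0.04, -0.03, -0.04, -0.08 and -0.03 over all genes tested. With upper-quartile scaling in place of the median ratio, the split at 1 d was 9 higher and 20 lower.

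After stress fracture of the ulna 14 of the 35 members tested were called at 4 h and 12 at 1 d, and most were higher from 3 d. Among these 35, of 20542 genes tested, 7 were higher and 7 lower at 4 h, where 10.7% of all genes were called. At 1 d 8 were higher and 4 lower, with 12.8% of all genes called. At 3 d 23 were higher and 3 lower, with 37.8% of all genes called; at 5 d 25 were higher and 4 lower, with 43.2% of all genes called. At 7 d 26 were higher and 3 lower, with 34.5% of all genes called. The share of all genes called higher was 5.49, 8.82, 20.2, 22.3 and 18.5% at these times, and lower 5.19, 3.97, 17.6, 20.9 and 16%. Median log2 differences were -0.00, 0.13, 0.71, 1.03 and 1.09 over the tested members, beside -0.00, -0.01, -0.02, -0.03 and -0.01 over all genes. All 10 comparisons with intact bone reuse the intact libraries of their bone, so they are not independent of one another.

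The filter on low values was passed through injured libraries alone by 5 members in femur (Mmp3, Mmp12, Mmp17, Mmp27 and Adamts16) and by 3 in ulna (Mmp17, Mmp27 and Adamts18), since fewer than 5 intact libraries reached 0.5 scaled RPKM for them. Such a member is in the test because it is high after injury, so its difference from intact bone is given as a description, with no p, and the counts and medians over members are given here without such members too. The other 32 in each bone passed in intact and in injured libraries. Of those 32 in femur 7, 9, 15, 17 and 22 were higher and 20, 15, 10, 8 and 7 lower at the 5 times; in ulna 7, 7, 21, 23 and 23 were higher and 6, 4, 3, 4 and 3 lower. Their median log2 difference was -0.61, -0.41, 0.28, 0.47 and 0.76 in femur and -0.01, 0.11, 0.71, 1.07 and 1.10 in ulna.

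**Figure D1:**
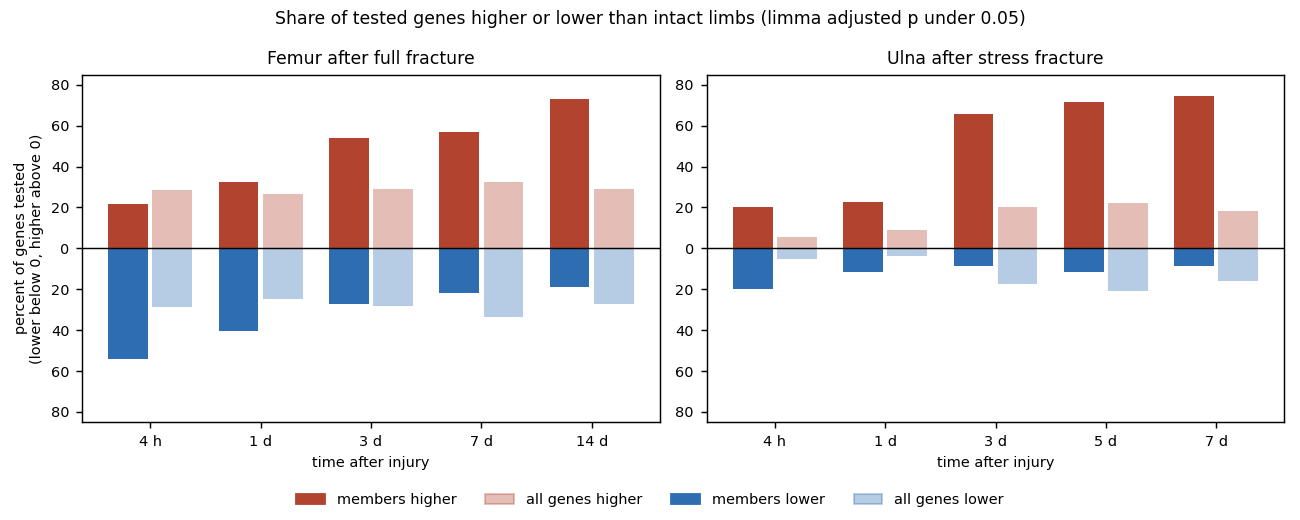
Percent of tested members and of all genes tested that were higher (up) or lower (down) than in intact bone at each time, at an adjusted p under 0.05, for fractured femur and stress-fractured ulna. In femur the members' bars turn from mostly lower at 4 h (20 of 37) to mostly higher at the last time (27 of 37). In ulna they go from 7 higher and 7 lower of 35 at 4 h to 26 of 35 higher at the last time. The bars for all genes stay near even, except in ulna at 1 d, with 8.82% higher and 3.97% lower. Members that passed the filter through injured libraries alone are included.

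Higher than in intact bone at all 5 times in both bones were 5 of the 35 members tested in both bones, Mmp3, Mmp19, Adamts4, Adamts9 and Timp1, beside 0.635% of the 19056 genes tested in both. Mmp3 is among the members that passed the filter in femur through injured libraries alone, so its femur calls are descriptions. Without it Mmp19, Adamts4, Adamts9 and Timp1 remain. No tested member was left uncalled at every femur time, and Mmp28 and Adamts8 were called at no ulna time. Of the 37 members tested in femur, 9 had their highest injured mean at 4 h, 5 at 1 d, 10 at 7 d and 13 at 14 d, and 18 had their lowest at 4 h. In ulna 5, 2, 5, 12 and 11 of 35 peaked at the 5 times in order, and 23 were lowest at 4 h.

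**Figure D2:**
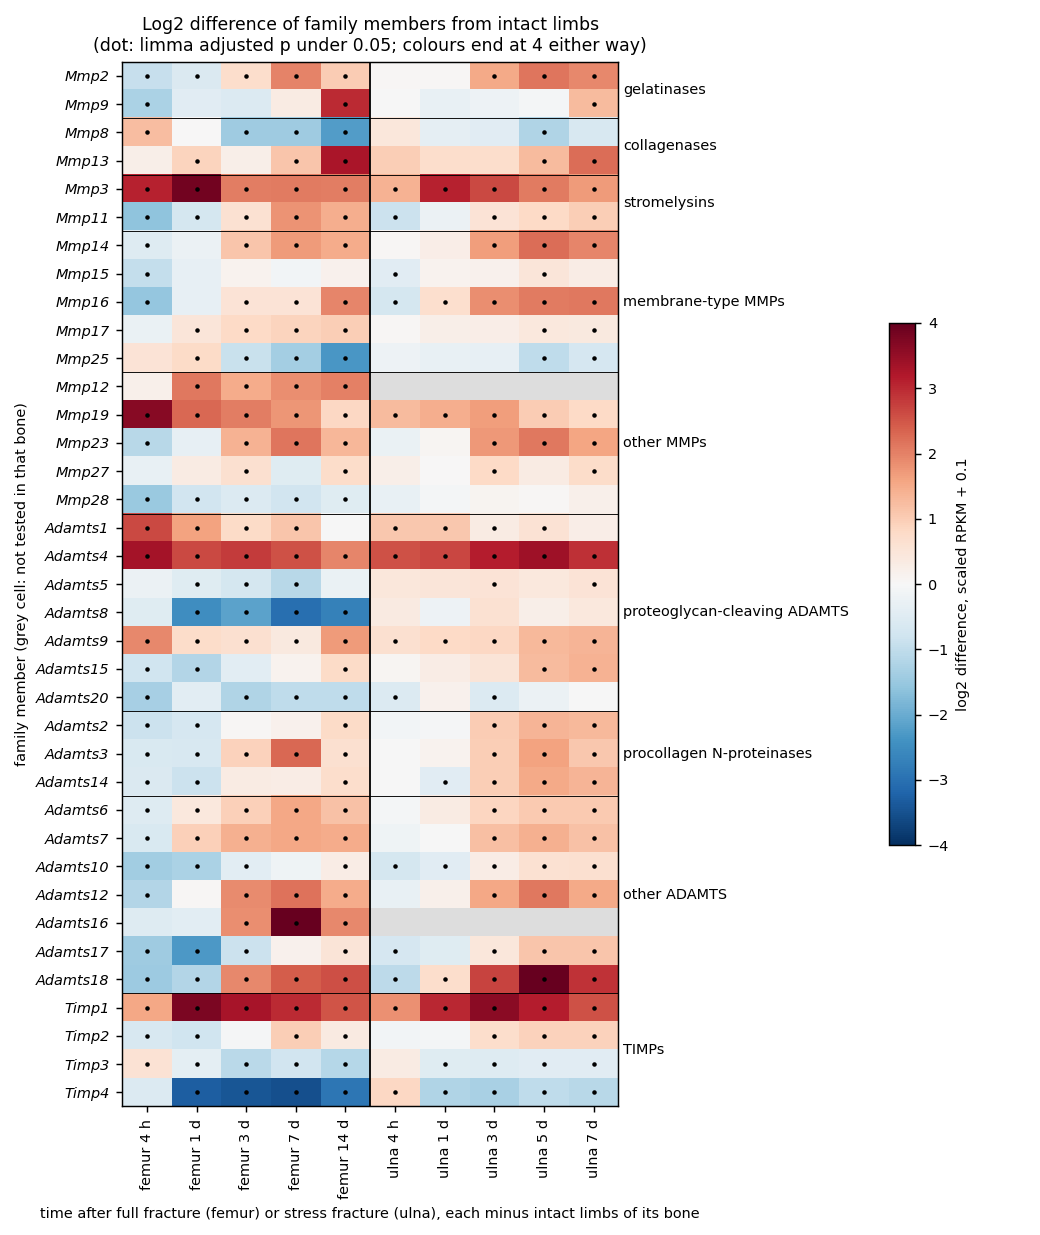
Log2 difference from intact bone of 37 members (rows, ordered by role) at the 5 femur and 5 ulna times (columns); red is higher and blue lower than intact, the colours end at 4, a dot marks an adjusted p under 0.05 and grey was not tested. The rows of Mmp3, Mmp19, Adamts4, Adamts9 and Timp1 are red with a dot in all 10 columns, and Timp4 is blue with a dot from 1 d on in both bones. Mmp3 passed the filter in femur through injured libraries alone, so its femur dots are descriptions.

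The 2 gelatinases, which cut denatured collagen, moved at different times. Mmp2 was lower than in intact femur early and peaked at 7 d. Its level at 7 d after full fracture was 622, 702, 639, 493 and 769 scaled RPKM in the 5 libraries, against 126 to 241 (median 145) in intact femora. All 5 values lay above the intact range. The log2 difference at 7 d was 1.99 ± 0.16 (adjusted p = 9.56e-13), after -0.92 at 4 h, -0.58 at 1 d and 0.69 at 3 d, and it was 1.02 at 14 d. In stress-fractured ulna Mmp2 averaged 90.2, 93.3, 247, 379.6 and 325 scaled RPKM at the 5 times, against 86.7 ± 16.4 in intact ulna (SD, n = 9). It was higher from 3 d on, by a log2 difference of 1.53, 2.15 and 1.91, while its differences at 4 h and 1 d were 0.03 and 0.05 and missed the threshold.

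Mmp9, the gelatinase of osteoclasts and neutrophils, was lower at 4 h after full fracture and far higher at 14 d. At 4 h the 5 femora had 109, 37.2, 54.7, 39.2 and 38.6 scaled RPKM, and at 14 d 835, 1004, 1060, 1067 and 867 scaled RPKM, while intact femora had 82.2 to 182 (median 120.2). Every 14 d value was above every intact value. The log2 difference was 2.98 ± 0.24 (adjusted p = 6.48e-12) at 14 d and -1.26 ± 0.24 (adjusted p = 3.92e-05) at 4 h, and at 1, 3 and 7 d the values -0.46, -0.54 and 0.32 missed the threshold. In ulna it was called at 7 d alone of the 5 times, with 185, 219, 96.8 and 228 scaled RPKM, against 58 to 85.2 (median 75.6) in intact ulnae, a log2 difference of 1.26 ± 0.20 (adjusted p = 1.88e-05). The osteoclast markers moved at the same times: 6 of 8 were lower at 4 h and all 8 were higher at 14 d in femur, where their sum was 4516 to 5628 scaled RPKM, against 287 to 918 in intact femur. In ulna 6 of 8 were higher at 7 d, with a sum of 271 to 695 scaled RPKM, against 144 to 215 in intact ulna. None of the 8 was at 0 in all libraries. Neutrophil markers, given beside Mmp8 below, moved the other way from Mmp9. Most were higher at 4 h and all were lower at 14 d in femur, and all were lower at 7 d in ulna. The part of either list in the Mmp9 differences was not tested.

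**Figure D3:**
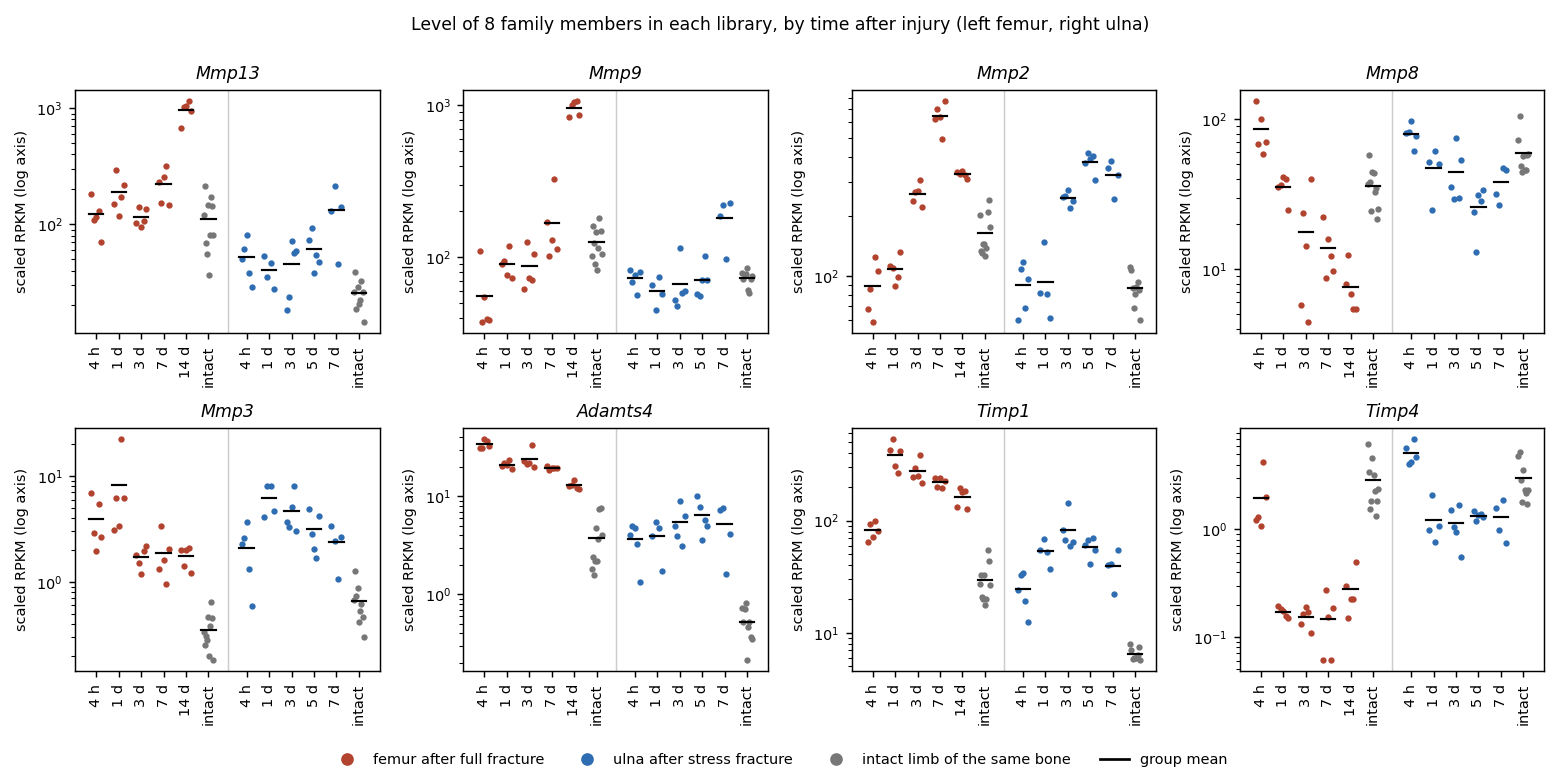
Scaled RPKM (log axis) of Mmp13, Mmp9, Mmp2, Mmp8, Mmp3, Adamts4, Timp1 and Timp4 in every library, by time, with fractured femur in red, stress-fractured ulna in blue, intact bone in grey and a black line at each group's mean. Mmp9 and Mmp13 stand far above intact at 14 d in femur (means 967 and 966, against 126 and 112), Mmp8 in femur is lower at each later time, and Timp1 lies above intact at every time.

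The collagenases Mmp13 and Mmp8 ran in opposite directions in the late fracture. Mmp13, the collagenase of cartilage and bone, had 671, 1019, 1036, 1149 and 955 scaled RPKM at 14 d after full fracture, against 36.9 to 214 (median 100.3) in intact femora. The groups did not overlap, and the log2 difference was 3.27 ± 0.30 (adjusted p = 7.62e-11). Earlier it was 0.88 at 1 d and 1.11 at 7 d, both called, and 0.24 at 4 h and 0.22 at 3 d, which were not. In ulna Mmp13 reached 131, 214, 45.3 and 140.3 scaled RPKM at 7 d, against 14.3 to 39.2 (median 26.1) in intact ulnae. This difference of 2.24 ± 0.36 (adjusted p = 1.95e-05) became 2.69 without library 4, the low one. Hypertrophic chondrocyte markers, listed because Mmp13 is known from those cells, summed to 2895 ± 967 scaled RPKM at 7 d and 1229 ± 768 at 14 d after full fracture, against 46.6 ± 8.44 in intact femur. Their sum was thus highest at 7 d and Mmp13 at 14 d, and their part in the Mmp13 difference was not tested.

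Mmp8, the collagenase of neutrophils, was higher at 4 h after full fracture and lower from 3 d. The 5 libraries at 4 h had 132, 67.8, 99.9, 58.4 and 70.3 scaled RPKM, those at 14 d 7.91, 12.3, 6.77, 5.42 and 5.45, and intact femora had 21.5 to 57.4 (median 35.9). The 4 h values lay above the intact ones and the 14 d values below them. The log2 difference was 1.25 ± 0.34 (adjusted p = 0.0024) at 4 h, -1.42 ± 0.34 (adjusted p = 6.44e-04) at 3 d, -1.41 ± 0.34 (adjusted p = 5.58e-04) at 7 d and -2.24 ± 0.34 (adjusted p = 1.36e-06) at 14 d. In ulna Mmp8 was called at 5 d, with 24.1, 13, 31.2, 28.2 and 33.7 scaled RPKM, against 44.1 to 105 (median 56.7) in intact ulnae, a log2 difference of -1.21 ± 0.25 (adjusted p = 2.19e-04). Markers of neutrophils followed a like course: 8 of 10 were higher in femur at 4 h, when their sum was 4759 to 15440 scaled RPKM, and all 10 were lower at 14 d, when it was 318 to 1601, against 2085 to 4344 in intact femur. In ulna all 10 were lower at 5 d and at 7 d. None of the 10 was at 0 in all libraries, and their part in the Mmp8 differences was not tested.

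The stromelysin Mmp3, which cuts proteoglycans and activates other proenzymes, was low in intact bone and higher at every time in both bones. At 1 d after full fracture it had 3.11, 6.2, 3.34, 22.3 and 6.17 scaled RPKM, against 0.181 to 0.646 (median 0.322) in intact femora. All 5 lay above the intact range, and library 4 was the highest by far. The log2 difference of 3.86 ± 0.33 was 3.40 without that library, and the mean of 8.23 became 4.70 scaled RPKM. At 4 h the difference was 3.08 ± 0.33, and at 3, 7 and 14 d it was 2.05 ± 0.33, 2.07 and 2.06. The peak in ulna was also at 1 d, with 4.07, 7.99, 7.99 and 4.72 scaled RPKM, against 0.299 to 1.27 (median 0.622) in intact ulnae, and a log2 difference of 3.09 ± 0.37 (adjusted p = 1.92e-06). At 4 h and 3 d in ulna the difference was 1.41 ± 0.35 (adjusted p = 0.0073) and 2.64 ± 0.35 (adjusted p = 5.18e-07). The stromelysin-like Mmp11, known from fibroblasts around tumours, was lower at first and higher later. In femur it averaged 1.03, 1.95, 4.96, 11.4 and 8.89 scaled RPKM at the 5 times, against 3.24 ± 0.594 in intact femur (SD, n = 10), with log2 differences of -1.59 ± 0.14 (adjusted p = 6.08e-11) at 4 h and 1.79 at 7 d. In ulna its differences were -0.85 ± 0.17 (adjusted p = 0.0011) at 4 h and 0.98 at 7 d.

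Of 5 membrane-type MMPs tested, 3 were lower at 4 h in femur, where 28.5% of all genes were lower. From 3 d on 3 were higher in femur, beside 28.8, 32.5 and 28.9% of all genes at 3, 7 and 14 d. The 3 higher ones include Mmp17, which passed the filter through fractured femora alone. Mmp14, which activates proMmp2 on the cell surface, was the most abundant, with 226, 233, 239.5, 209.7 and 269.8 scaled RPKM at 7 d after full fracture, against 50 to 112 (median 72.9) in intact femora. The groups did not overlap, and the log2 difference was 1.70 ± 0.14 (adjusted p = 2.08e-12). In ulna it peaked at 5 d, at 129, 149, 128, 137 and 114 scaled RPKM, against 21.3 to 36.2 (median 28.6) in intact ulnae, with a log2 difference of 2.22 ± 0.16 (adjusted p = 3.32e-12). Mmp16, a second membrane-type enzyme that activates proMmp2, was lower at 4 h (-1.55 ± 0.18, adjusted p = 1.30e-08 in femur and -0.72 ± 0.17, adjusted p = 0.0050 in ulna). It rose late, by log2 differences of 1.96 at 14 d in femur and 2.10 at 7 d in ulna. Mmp17, anchored by glycosylphosphatidylinositol, was low, at 0.964 scaled RPKM at 14 d and 0.443 in intact femur, a log2 difference of 1.00. Mmp15 was lower at 4 h in both bones, by log2 differences of -0.95 in femur and -0.46 in ulna, and was called at no later femur time. Mmp25, the membrane-type enzyme of leukocytes, was called higher at 1 of the 5 femur times and lower at 3. Its highest femur mean was at 1 d, at 7.12 scaled RPKM, against 4.22 in intact femur. Late in femur it moved the other way from Mmp14. At 14 d it had 0.893, 1.12, 0.674, 0.441 and 0.711 scaled RPKM, against 2.16 to 6.17 (median 4.39) in intact femora. The log2 difference was -2.32 ± 0.31 (adjusted p = 1.37e-07), after -1.37 ± 0.31 (adjusted p = 2.44e-04) at 7 d. In ulna Mmp25 was lower at 5 d, with a log2 difference of -1.01 ± 0.23 (adjusted p = 8.24e-04), and at 7 d it differed by -0.66 ± 0.25 (adjusted p = 0.042), a call lost under 9 of the other settings tried. The neutrophil markers given beside Mmp8 were also lower at 14 d in femur and at 5 d and 7 d in ulna. In femur most of these markers were higher at 4 h, whereas the highest Mmp25 mean was at 1 d. Their part was not tested.

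Mmp19, a secreted enzyme of vessel wall and leukocytes, made the largest rise of any member at 4 h after full fracture. Its 5 libraries had 27.2, 52.1, 85.2, 31.7 and 36.1 scaled RPKM, against 2.49 to 5.63 (median 3.15) in intact femora. The log2 difference was 3.64 ± 0.21 (adjusted p = 1.72e-15), and it was smaller at each later time, at 2.30 ± 0.21 (adjusted p = 1.37e-10), 2.03 ± 0.21 (adjusted p = 9.86e-10), 1.75 and 0.84. In ulna the largest difference was at 3 d, when 5.5, 7.59, 10.2, 7.5 and 9.08 scaled RPKM stood against 2.09 to 3.04 (median 2.4) in intact ulnae (1.67 ± 0.22, adjusted p = 7.32e-07), after differences of 1.26 ± 0.22 (adjusted p = 3.17e-04) at 4 h and 1.45 ± 0.24 (adjusted p = 1.30e-04) at 1 d. On the annotation 28.3% of the exon bases of Mmp19 lie opposite an exon on the other strand, and the labels do not say whether reads were counted by strand. Mmp23, a small membrane-linked enzyme without the usual activation switch, peaked at the same times as Mmp14, with 54.4, 51.7, 47.4, 38.8 and 60.2 scaled RPKM at 7 d in femur, against 7.98 to 17.9 (median 10.7) in intact femora (2.14 ± 0.15, adjusted p = 1.17e-13), and a log2 difference of 2.10 at 5 d in ulna. Mmp28, known from epithelia, was lower at all 5 femur times, by log2 differences of -1.48 ± 0.11 (adjusted p = 8.25e-13) at 4 h and -0.47 at 14 d. Mmp12, which cuts elastin, stayed under 1 scaled RPKM on average; it was 0.822, 1.09, 0.814, 0.679 and 0.635 at 1 d, against 0.0653 to 0.188 (median 0.11) in intact femora, with log2 differences of 2.10, 1.49, 1.86 and 2.0 from 1 d on. In ulna it did not pass the filter. Mmp27, another neighbour on chromosome 9, averaged 0.717 scaled RPKM at 14 d, against 0.40 in intact femur, with a log2 difference of 0.74.

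Read along chromosome 9, the tested neighbours thus did not all take the same course. Mmp12 and Mmp3 were alike at 14 d after full fracture and differed at 4 h. In order of position, the log2 differences at 14 d after full fracture were 3.27 for Mmp13, 2.0 for Mmp12, 2.06 for Mmp3, -2.24 for Mmp8 and 0.74 for Mmp27. At 4 h they were 0.24, 0.21, 3.08, 1.25 and -0.29. Mmp13 and Mmp8, the 2 of these that passed the filter in intact femora too, were called at 14 d, and Mmp8 at 4 h. The 3 genes whose windows above hold an AP-1 match peaked at different femur times: Mmp3 and Mmp12 at 1 d and Mmp13 at 14 d.

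Among the 7 ADAMTS genes of the branch that cuts aggrecan, versican and related proteoglycans, Adamts4, Adamts1 and Adamts9 rose within 4 h in both bones. Adamts4, an aggrecanase, had 31.1, 31, 38.3, 36.8 and 32.8 scaled RPKM at 4 h after full fracture, against 1.58 to 7.67 (median 3.04) in intact femora. No value overlapped, and the log2 difference of 3.33 ± 0.24 (adjusted p = 4.56e-13) was followed by 2.64 ± 0.24 (adjusted p = 1.51e-10), 2.81 ± 0.24 (adjusted p = 2.36e-11), 2.54 ± 0.24 (adjusted p = 9.51e-11) and 1.95. In ulna the largest difference came at 5 d, with 10, 7.77, 3.56, 5.78 and 5.04 scaled RPKM, against 0.213 to 0.815 (median 0.519) in intact ulnae (3.38 ± 0.35, adjusted p = 6.74e-09), and the earlier ones were 2.54 ± 0.35 (adjusted p = 1.38e-05) at 4 h, 2.67 ± 0.38 (adjusted p = 1.94e-05) at 1 d and 3.14 ± 0.35 (adjusted p = 3.95e-08) at 3 d. At 7 d library 4 was low in ulna, with values of 7.34, 7.67, 1.62 and 4.14; the difference of 2.94 ± 0.38 (adjusted p = 7.35e-07) was 3.40 without it. Adamts1, which cuts versican, was highest at 4 h, at 67.7, 67.9, 76.1, 84.4 and 85.5 scaled RPKM in fractured femora, against 10.1 to 14.7 (median 11.5) in intact femora (2.65 ± 0.10, adjusted p = 1.97e-20). By 14 d its difference was -0.03 (adjusted p = 0.85). Adamts9, also a versicanase, was high at both ends of the femur course, with 14.8, 15.9, 15.6, 19.4 and 20 scaled RPKM at 4 h and 13.4, 14.8, 15.4, 14.3 and 14.5 at 14 d, against 2.87 to 6.07 (median 4.5) in intact femora. Its differences were 1.93 ± 0.12 (adjusted p = 1.13e-14) at 4 h, 0.39 at 7 d and 1.69 at 14 d.

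The other 4 of this branch were called higher at 4 h in neither bone. Adamts5, the main aggrecanase of mouse cartilage, was lower in femur at 1, 3 and 7 d, with 4.49, 4.31, 5.2, 5.02 and 4.08 scaled RPKM at 7 d, against 6.71 to 14.5 (median 10.3) in intact femora (-1.12 ± 0.14, adjusted p = 1.23e-08). In ulna Adamts5 was higher at 3 d and 7 d, with log2 differences of 0.54 and 0.54. Adamts8 was lower in femur from 1 d on, at 0.309, 0.725, 0.65, 0.28 and 0.322 scaled RPKM at 7 d, against 1.84 to 9.32 (median 3.88) in intact femora. The groups did not overlap, and its log2 differences were -2.49 ± 0.33 (adjusted p = 1.93e-07) at 1 d, -2.14 ± 0.33 (adjusted p = 1.59e-06) at 3 d, -3.02 ± 0.33 (adjusted p = 1.63e-09) at 7 d and -2.69 ± 0.33 (adjusted p = 3.11e-08) at 14 d. At 4 h its 5 values were 3.4, 2.59, 0.912, 10.3 and 2.69, and library 4 alone lifted the mean to 3.99 scaled RPKM, with 2.4 without it. Skeletal muscle markers were lower in the same femora, 5 of 6 at 1 d and all 6 at 3, 7 and 14 d, with sums at the last 3 times of 3822, 3857 and 3971 scaled RPKM on average, against 17830 in intact femur, and their part in the Adamts8 difference was not tested. Adamts15 was lower at 1 d (-1.17) and higher at 14 d (0.76) in femur, and higher at 5 and 7 d in ulna (1.26 and 1.39). Adamts20 was lower in femur at 4 h, 3, 7 and 14 d, with a log2 difference of -1.21 ± 0.28 (adjusted p = 4.05e-04) at 3 d, and lower in ulna at 4 h and 3 d, by log2 differences of -0.54 and -0.56 ± 0.15 (adjusted p = 0.0049).

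The 3 procollagen N-proteinases, which remove the amino-terminal propeptide of fibrillar procollagens, were all lower at 4 h and 1 d in femur and all higher at 14 d. Of all genes 28.5 and 24.8% were lower at 4 h and 1 d, and 28.9% were higher at 14 d. Adamts2, the most abundant, averaged 12.4, 14.4, 23.2, 25.3 and 38.3 scaled RPKM over the femur times, against 23.4 ± 6.49 in intact femur (SD, n = 10). Its log2 differences were -0.87 at 4 h and 0.76 at 14 d. Adamts3 peaked at 7 d, with 13.6, 9.63, 11.9, 13.4 and 11.6 scaled RPKM, against 1.71 to 3.04 (median 2.22) in intact femora, clear of each other (2.30 ± 0.12, adjusted p = 9.73e-17). Adamts14 differed by -0.85 at 1 d and 0.71 at 14 d in femur. In ulna all 3 were higher at 3, 5 and 7 d, beside 20.2, 22.3 and 18.5% of all genes. At 5 d the log2 differences were 1.36 for Adamts2, 1.60 for Adamts3 and 1.53 for Adamts14. The fall of Adamts14 at 1 d in ulna (-0.44 ± 0.15, adjusted p = 0.047) was lost under 11 settings.

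Of the other ADAMTS genes, all 6 tested in ulna were higher at 3, 5 and 7 d, beside 20.2, 22.3 and 18.5% of all genes. In femur all 7 tested were higher at 14 d, beside 28.9% of all genes, whereas 6 of 7 were lower at 4 h, beside 28.5%. These counts include Adamts18 in ulna and Adamts16 in femur, which passed the filter there through injured libraries alone. Adamts18, an enzyme with few known substrates, rose most in ulna: at 5 d it had 5.16, 7.83, 5.51, 9.72 and 4.85 scaled RPKM, against 0.168 to 0.453 (median 0.279) in intact ulnae. The log2 difference was 4.11 ± 0.20, beside 2.70 ± 0.20 at 3 d and 2.90 ± 0.21 at 7 d. In femur Adamts18 went the same way, with 3.67, 4.56, 5.41, 5.54 and 4.53 scaled RPKM at 14 d, against 0.475 to 1.13 (median 0.707) in intact femora (log2 difference 2.59 ± 0.21, adjusted p = 4.34e-12, beside 2.43 ± 0.21, adjusted p = 4.81e-12 at 7 d), and it was lower at 4 h and 1 d, with log2 differences of -1.47 and -1.17. Adamts16 was near 0 in intact bone and peaked sharply at 7 d after full fracture, with 3.09, 5.51, 5.39, 2.19 and 6.61 scaled RPKM, against 0.00808 to 0.194 (median 0.0648) in intact femora. At 14 d it was 0.441, 0.998, 0.739, 0.516 and 0.316 scaled RPKM. Its log2 difference of 4.63 ± 0.28 at 7 d describes a member that passed the filter through fractured femora alone, and in ulna it never averaged above 0.159 scaled RPKM and did not pass the filter. Chondrocyte markers were also highest in femur at 7 d, where all 6 of 6 were higher and their sum was 1201 to 2388 scaled RPKM, against 118 to 329 in intact femur. In ulna they were all higher at 5 d, with a mean sum of 458, against 52.8 in intact ulna. Their part in the Adamts16 peak was not tested.

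Adamts12 and Adamts7, which both cut cartilage oligomeric matrix protein, peaked together at 7 d in femur and 5 d in ulna. Adamts12 averaged 19.9 ± 2.05 scaled RPKM at 7 d after full fracture, against 4.37 ± 0.79 in intact femur (SD, n = 5 and 10), with a log2 difference of 2.18; in ulna it was 2.11 at 5 d. Adamts7 differed by 1.54 and 1.42 at those times, from lower levels (4.07 scaled RPKM at 7 d, against 1.35 in intact femur). Adamts6 differed by 1.56 at 7 d in femur and 1.06 at 7 d in ulna. Adamts10, known for its link to fibrillin microfibrils, was lower at 4 h, 1 and 3 d after full fracture (-1.28 ± 0.13, adjusted p = 6.44e-10 at 1 d) and at 4 h and 1 d in ulna (-0.72 ± 0.09, adjusted p = 3.53e-06 and -0.44 ± 0.10, adjusted p = 0.0028). Adamts17, of the same subgroup, was lower at 4 h, 1 and 3 d in femur, with 0.60, 0.313, 0.395, 0.338 and 0.497 scaled RPKM at 1 d, against 1.7 to 3.87 (median 2.45) in intact femora. That difference was -2.28 ± 0.16 (adjusted p = 5.75e-13), after -1.41 ± 0.16 (adjusted p = 1.03e-08) at 4 h, and by 14 d the gene was higher, with a log2 difference of 0.53. At 4 h in ulna it differed by -0.67 ± 0.18 (adjusted p = 0.011).

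The 4 TIMPs separated into one that rose at all times, one that rose late and a pair that fell. Timp1 had 423, 534, 309.7, 264 and 415 scaled RPKM at 1 d after full fracture, against 17.8 to 55.1 (median 27.1) in intact femora. It did not overlap with intact bone at any time in either bone. The log2 differences in femur were 1.54 at 4 h, 3.76 ± 0.21 (adjusted p = 9.34e-16) at 1 d, 3.29 ± 0.21 (adjusted p = 2.16e-14) at 3 d, 2.97 ± 0.21 (adjusted p = 4.65e-14) at 7 d and 2.53 ± 0.21 (adjusted p = 6.87e-12) at 14 d. In ulna the peak was at 3 d, with 82.2, 67.7, 143, 59.9 and 64.2 scaled RPKM, against 5.67 to 7.93 (median 5.98) in intact ulnae (3.60 ± 0.22, adjusted p = 1.07e-12). At the other ulna times its difference was 1.83 ± 0.22 (adjusted p = 1.95e-06) at 4 h, 3.0 ± 0.24 (adjusted p = 1.67e-09) at 1 d, 3.15 ± 0.22 (adjusted p = 2.70e-12) at 5 d and 2.54 ± 0.24 (adjusted p = 3.31e-09) at 7 d. Timp2, which also takes part in the activation of proMmp2, was lower at 4 h and 1 d in femur (-0.65 and -0.81) and higher at 7 d, with 170.4, 176, 179.9, 136 and 226 scaled RPKM, against 72 to 112 (median 85.1) in intact femora (0.99). In ulna it was higher at 3, 5 and 7 d, with log2 differences of 0.71, 0.93 and 0.93.

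Timp3, the inhibitor held in the matrix and the main one for ADAMTS aggrecanases, was higher at 4 h in femur and lower afterwards in both bones. Fractured femora at 14 d had 12.1, 11.6, 12.4, 11.5 and 12.1 scaled RPKM, against 21 to 43.3 (median 24.2) in intact femora. The log2 difference was 0.57 at 4 h and -1.15 at 14 d, and in ulna -0.48 ± 0.13 (adjusted p = 0.013), -0.51 ± 0.12 (adjusted p = 0.0013), -0.46 ± 0.12 (adjusted p = 0.0026) and -0.44 ± 0.13 (adjusted p = 0.0083) from 1 d on. Timp3 lies opposite Syn3 over 21.3% of its exon bases. Timp4, known from muscle, heart and fat, fell furthest. At 7 d after full fracture it had 0.0605, 0.27, 0.154, 0.0609 and 0.184 scaled RPKM, against 1.34 to 6.29 (median 2.34) in intact femora, with no overlap. Its log2 differences were -3.30 ± 0.30 (adjusted p = 7.55e-11) at 1 d, -3.41 ± 0.30 (adjusted p = 2.13e-11) at 3 d, -3.52 ± 0.30 (adjusted p = 4.62e-12) at 7 d and -2.88 ± 0.30 (adjusted p = 8.77e-10) at 14 d, all on a scale that understates changes of genes near 0. In ulna Timp4 was higher at 4 h (0.83) and lower from 1 d on, with log2 differences of -1.21 ± 0.28 (adjusted p = 0.0042) at 1 d, -1.29 ± 0.26 (adjusted p = 2.88e-04) at 3 d, -1.0 ± 0.26 (adjusted p = 0.0027) at 5 d and -1.12 ± 0.28 (adjusted p = 0.0028) at 7 d. The muscle markers given beside Adamts8 were lower in the same femora, and all 5 adipocyte markers were lower at 1 d, with a mean sum of 23.3 scaled RPKM, against 73 in intact femur. None of these was at 0 in all libraries, and their part in the Timp4 difference was not tested.

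**Figure D4:**
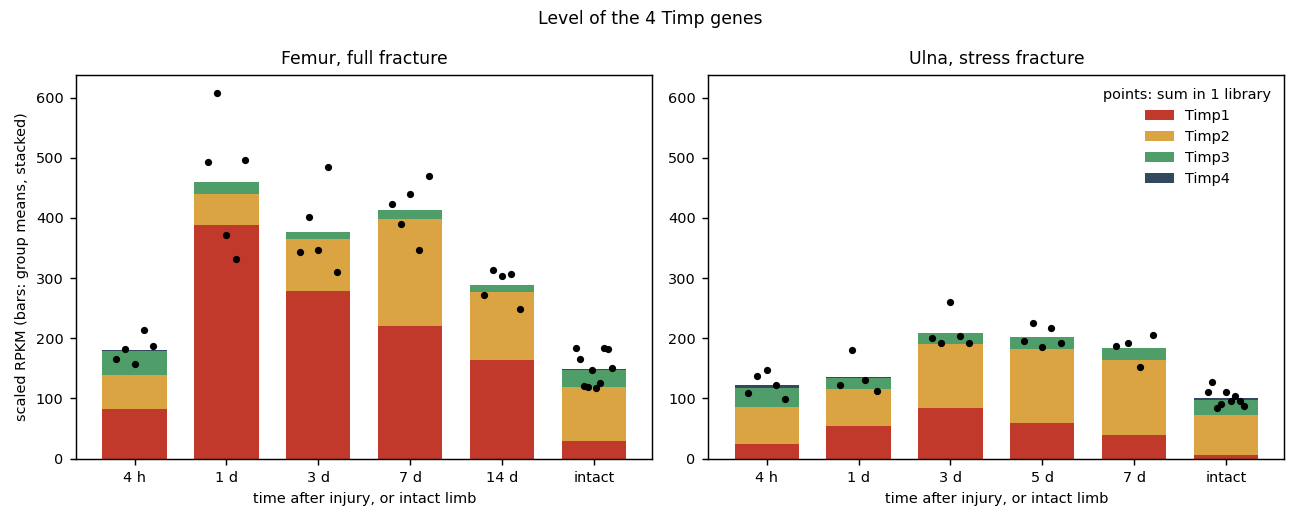
Mean scaled RPKM of Timp1, Timp2, Timp3 and Timp4, stacked, in each femur and ulna group, with points for the sum in each library. Timp1 makes up 84.0% of the sum at 1 d after full fracture, against 19.4% in intact femur, and 39.3% at 1 d in ulna, against 6.45% in intact ulna.

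Summed over a family, the 23 Mmp genes reached 2542 ± 292 scaled RPKM at 14 d after full fracture, against 549.5 ± 132 in intact femur (SD, n = 5 and 10). Of the 14 d sum, Mmp9 made up 38.1% and Mmp13 37.7%. The Adamts sum was highest in femur at 4 h, at 174 ± 13.3, against 104 ± 15.3 in intact femur, and Adamts1 alone was 43.9% of it. The Timp sum was highest at 1 d, at 460.1 ± 110.0, against 149.5 ± 27.9 in intact femur. The ratio of the Mmp sum to the Timp sum of a library therefore moved both ways: it was 2.65 ± 0.655 at 4 h, 1.22 ± 0.271 at 1 d, 1.91 ± 0.295 at 3 d, 3.37 ± 0.448 at 7 d and 8.81 ± 0.72 at 14 d, against 3.65 ± 0.372 in intact femur. At 1 d it ran from 1.03 to 1.69 and at 14 d from 7.77 to 9.62, both clear of the intact range of 3.13 to 4.11. In ulna the ratio was 2.9 ± 0.438, 2.37 ± 0.337, 2.63 ± 0.212, 3.59 ± 0.215 and 4.52 ± 0.711 at the 5 times, against 3.01 ± 0.236 in intact ulna. These ratios are of RNA and say nothing of active enzyme.

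The responses of the 2 injuries were compared at the 4 times they share, as the difference of full fracture from intact femur minus that of stress fracture from intact ulna, in 1 fit over both bones with 37 members among 21123 genes. At each shared time more members responded lower after full than after stress fracture. At 4 h 4 were higher and 20 lower, with 36% of all genes called (17.8% higher and 18.2% lower); at 1 d 4 were higher and 13 lower, with 27.1% of all genes called (13.8% higher and 13.3% lower). At 3 d 2 were higher and 15 lower, with 26.2% called (12.6% higher and 13.6% lower), and at 7 d 8 were higher and 15 lower, with 46.9% called (23.5% higher and 23.4% lower). The median over members was -0.56, -0.45, -0.55 and -0.39, beside -0.07, -0.06, -0.06 and -0.10 over all genes tested. These counts and medians include Mmp12 and Adamts16, which reached 0.5 scaled RPKM in no intact library and are in the fit through injured libraries alone. On the RPKM as deposited the splits were 6 and 11 at 1 d and 3 and 10 at 3 d.

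Mmp19, Mmp3 and Adamts1 rose more after full fracture at 4 h, with log2 differences of 2.37 ± 0.31 (adjusted p = 1.77e-08), 1.69 ± 0.49 (adjusted p = 0.0049) and 1.58 ± 0.16 (adjusted p = 1.59e-11) on the log2 scale. Timp4, Mmp9 and Mmp28 were the members most in the other direction, at -1.40 ± 0.40 (adjusted p = 0.0050), -1.27 ± 0.31 (adjusted p = 0.0010) and -1.20 ± 0.16 (adjusted p = 1.02e-08). At 1 d the differences in favour of full fracture were 0.96 ± 0.19 (adjusted p = 9.06e-05) for Adamts7, 0.83 ± 0.33 (adjusted p = 0.049) for Mmp19 and 0.51 ± 0.17 (adjusted p = 0.021) for Adamts1. The Mmp19 value at 1 d was 0.63 and not called without femur library 2, and it lost its call under 18 of the settings tried. Adamts18 was -1.88 ± 0.30 (adjusted p = 2.86e-06) at that time. At 3 d Adamts1 was 0.43 ± 0.16 (adjusted p = 0.043), and Mmp16 was -1.30 ± 0.25 (adjusted p = 9.75e-05) on the low side; the Adamts1 call was lost under 16 settings. Adamts8 was the member that differed most to the low side at 1, 3 and 7 d, with -2.30 ± 0.46 (adjusted p = 1.54e-04), -2.74 ± 0.45 (adjusted p = 5.15e-06) and -3.45 ± 0.46 (adjusted p = 1.19e-08). Timp4 came next at those times, with -2.14 ± 0.42 (adjusted p = 1.12e-04), -2.16 ± 0.40 (adjusted p = 5.11e-05) and -2.44 ± 0.42 (adjusted p = 2.86e-06). At 7 d the differences in favour of full fracture were led by Adamts3 with 1.22 ± 0.19 (adjusted p = 5.72e-07) and Mmp19 with 0.95 ± 0.33 (adjusted p = 0.013), while Adamts5 was -1.66 ± 0.24 (adjusted p = 5.01e-08). Adamts16 had 1.37 ± 0.36 at 3 d and 3.76 ± 0.37 at 7 d in this fit, given without a p because it passed the filter through fractured femora alone. Of the 5 members higher at all times in both bones, Timp1 differed by -0.30 (adjusted p = 0.48) at 4 h, 0.74 (adjusted p = 0.077) at 1 d, -0.31 (adjusted p = 0.51) at 3 d and 0.44 (adjusted p = 0.26) at 7 d. Adamts4 differed by 0.79, -0.03, -0.31 and -0.38, and none of these passed the threshold either, which does not show that the responses were alike.

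**Figure D5:**
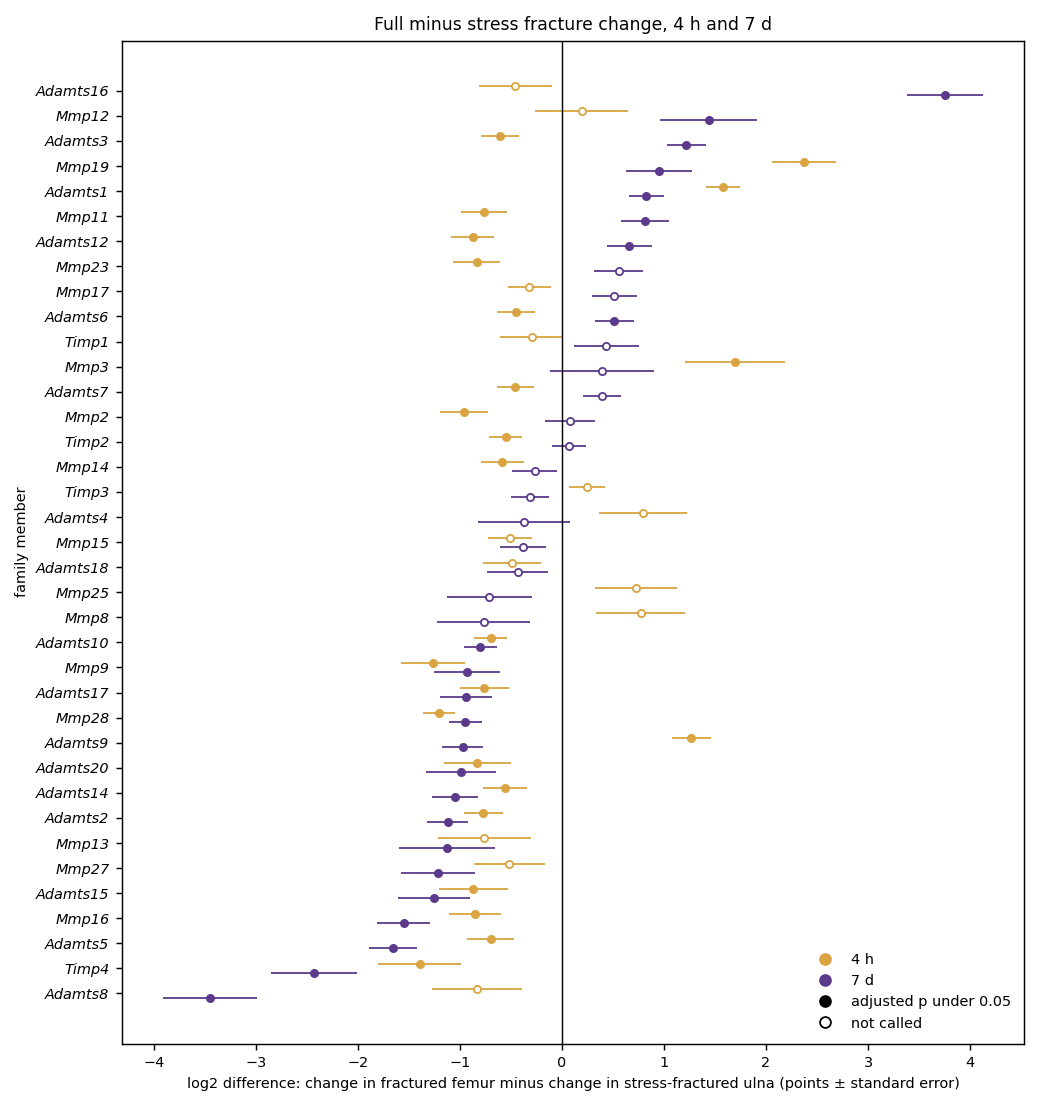
Log2 difference between the responses to full and to stress fracture (full minus stress) for 37 members at 4 h and 7 d, with SE bars; filled points have an adjusted p under 0.05. At 4 h Mmp19 stands furthest to the high side (2.37), and at 7 d Adamts8 (-3.45) stands furthest to the low side. The point of Adamts16 at 7 d (3.76) is that of a member that passed the filter through fractured femora alone. Mmp12 likewise passed through injured libraries alone.

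Intact bones differed before any injury. Of 37 members 23 were lower in intact ulna than in intact femur and 1 was higher. Of all genes 39.6% were called (18% higher and 21.7% lower). The median was -0.48 over members, beside -0.01 over all genes. On the RPKM as deposited the split was 5 higher and 17 lower. The 23 lower ones include Mmp12 and Adamts16, which reached 0.5 scaled RPKM in no intact library. Both are in the test because they were high after injury, so their calls here are descriptions. Adamts4 differed most, at 0.523 scaled RPKM in intact ulna and 3.78 in intact femur, each on its own bone's scale, and a log2 difference on the common scale of -2.69 ± 0.25 (adjusted p = 4.18e-13). Timp1 (-2.30 ± 0.18, adjusted p = 3.05e-16) and Mmp13 (-2.20 ± 0.27, adjusted p = 1.07e-09) came next. Adamts20 was the 1 member higher in intact ulna, with a log2 difference of 0.75 ± 0.19 (adjusted p = 0.0014). For the femora the labels name a step that spun out the marrow, and for the ulnae they name none. An effect of that step cannot be told apart from one of the bone.

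Set against the time before, the femur members shifted at every step. At 1 d against 4 h 13 members were higher and 9 lower, with 39.8% of all genes called (20.3% higher and 19.5% lower), led upwards by Timp1 (2.22 ± 0.24, adjusted p = 7.75e-09), Adamts7 (1.58 ± 0.13, adjusted p = 1.04e-10) and Mmp16 (1.21 ± 0.21, adjusted p = 2.46e-05). Timp4 (-2.75 ± 0.34, adjusted p = 1.22e-07), Adamts8 (-2.02 ± 0.38, adjusted p = 8.02e-05) and Mmp19 (-1.34 ± 0.24, adjusted p = 4.56e-05) fell most. At 3 d against 1 d 17 were higher and 5 lower, with 32.1% called (15.7% higher and 16.4% lower). Adamts18 (3.09 ± 0.24, adjusted p = 3.11e-11), Adamts12 (1.86 ± 0.15, adjusted p = 5.39e-11) and Mmp23 (1.75 ± 0.18, adjusted p = 5.42e-09) led the rises, and Mmp3 (-1.81 ± 0.39, adjusted p = 4.13e-04), Mmp25 (-1.64 ± 0.36, adjusted p = 5.56e-04) and Mmp8 (-1.44 ± 0.39, adjusted p = 0.0049) the falls. At 7 d against 3 d 12 were higher and 2 lower, with 35.1% called (19.8% higher and 15.4% lower), with Adamts3 (1.39 ± 0.14, adjusted p = 3.75e-09) and Mmp2 (1.30 ± 0.18, adjusted p = 1.17e-06) in front, beside 2.78 ± 0.32 for Adamts16, and Adamts5 (-0.43 ± 0.16, adjusted p = 0.033) lowest among those of 1 scaled RPKM or more, a call lost under 8 of the settings tried; on the RPKM as deposited the split was 7 and 7. At 14 d against 7 d 9 were higher and 10 lower, with 31.5% called (14% higher and 17.5% lower), or 13 and 8 on the RPKM as deposited. Mmp9 (2.65 ± 0.28, adjusted p = 5.62e-09) and Mmp13 (2.16 ± 0.34, adjusted p = 8.30e-06) rose most, followed by Mmp16 (1.41 ± 0.21, adjusted p = 3.08e-06), and Adamts3 (-1.66 ± 0.14, adjusted p = 7.87e-11) and Adamts1 (-1.13 ± 0.11, adjusted p = 2.67e-09) fell most, beside -2.71 ± 0.32 for Adamts16.

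In ulna the steps were fewer. At 1 d against 4 h 7 members were higher and 2 lower, with 11.1% of all genes called (7.24% higher and 3.88% lower); Mmp3 (1.68 ± 0.42, adjusted p = 0.0076), Mmp16 (1.38 ± 0.20, adjusted p = 5.92e-05) and Timp1 (1.18 ± 0.27, adjusted p = 0.0035) led the rises, and Timp4 (-2.04 ± 0.32, adjusted p = 9.33e-05) and Timp3 (-0.79 ± 0.15, adjusted p = 5.47e-04) fell. At 3 d against 1 d 15 were higher and 2 lower, with 17% called (10.8% higher and 6.22% lower), among them Adamts18 (2.01 ± 0.24), Mmp23 (1.65 ± 0.20, adjusted p = 1.68e-06) and Mmp2 (1.48 ± 0.21, adjusted p = 1.01e-05), while Adamts1 (-0.75 ± 0.16, adjusted p = 0.0010) and Adamts20 (-0.74 ± 0.18, adjusted p = 0.0051) fell. At 5 d against 3 d 3 were higher and 0 lower, with 4.65% called (2.21% higher and 2.44% lower), and these were Adamts18 (1.41 ± 0.22, adjusted p = 3.51e-04), Adamts3 (0.60 ± 0.16, adjusted p = 0.028) and Adamts14 (0.54 ± 0.16, adjusted p = 0.040). The calls of Adamts3 and Adamts14 were lost under 6 and 10 of the settings tried. At 7 d against 5 d 1 was higher and 1 lower, with 1.69% called (0.277% higher and 1.42% lower): Mmp9 rose (1.32 ± 0.23, adjusted p = 0.0023) and Adamts18 fell (-1.20 ± 0.24, adjusted p = 0.0066). Without ulna library 4 at 7 d the Adamts18 value was -1.04, with an adjusted p of 0.0533.

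Other genes of the same pathway are given by lists. Their counts stand beside all genes tested, of which 28.3, 26.7, 28.8, 32.5 and 28.9% were higher and 28.5, 24.8, 28, 33.6 and 27% lower at the 5 femur times, and 5.49, 8.82, 20.2, 22.3 and 18.5% higher and 5.19, 3.97, 17.6, 20.9 and 16% lower at the 5 ulna times. Of 11 activators and clearance receptors, such as plasminogen activators and the receptors that take up cleaved collagen, 7, 7, 9, 10 and 9 were higher at the 5 femur times and 3, 2, 0, 0 and 0 lower; in ulna 4, 4, 10, 8 and 8 were higher and 1, 0, 0, 0 and 1 lower. Plau, the urokinase plasminogen activator, was higher in all 10 comparisons, at 41.8 scaled RPKM on average at 1 d after full fracture, against 8.18 in intact femur. Its receptor Plaur averaged 103 scaled RPKM at 4 h, against 7.44 in intact femur, a log2 difference of 3.79. Mrc2, which takes up collagen fragments, differed by 1.07 at 14 d. Of 10 other inhibitors and ADAMTS-like proteins, 1, 0, 2, 2 and 1 were higher in femur and 7, 7, 6, 5 and 6 lower; in ulna 1, 1, 3, 3 and 3 were higher and 3, 2, 2, 2 and 1 lower. Reck, a membrane-anchored inhibitor of MMPs, differed from intact femur by -0.90 at 4 h, -0.94 at 1 d and -0.61 at 3 d. Papln, a papilin that is homologous to ADAMTS proteins, differed by -2.28 at 1 d, and A2m, a plasma inhibitor of proteinases, with a log2 difference of -3.18 at 7 d.

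Among 11 substrates, 1, 3, 4, 10 and 9 were higher and 3, 4, 1, 1 and 1 lower at the femur times, and in ulna 2, 1, 8, 10 and 10 were higher and 0, 0, 1, 1 and 1 lower. The femur counts of 3 higher at 1 d and 3 lower at 4 h are near the share of all genes. Vcan, the versican cut by Adamts1 and others, was higher in all 10 comparisons. Acan, the aggrecan cut by Adamts4 and Adamts5, averaged 814 ± 208 scaled RPKM at 7 d after full fracture, against 7.47 ± 2.8 in intact femur (SD, n = 5 and 10), a log2 difference of 6.80; in ulna it was 5.29 at 5 d. Vwf, the substrate of Adamts13, averaged 2.27 scaled RPKM at 14 d, against 14.7 in intact femur (-2.65). Of 8 related ADAM proteases, 4, 7, 7, 6 and 5 were higher and 1, 1, 1, 2 and 2 lower in femur, and 2, 3, 5, 5 and 5 higher and 1, 0, 0, 2 and 0 lower in ulna. Adam8, of leukocytes and osteoclasts, averaged 94.6 scaled RPKM at 4 h, against 6.2 in intact femur (3.90), and Adam12, known from mesenchymal cells, 17.6 at 5 d in ulna, against 3.71 in intact ulna (2.22). All differences given for these lists passed the threshold.

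For 6 members the genes whose log2 values ran most like theirs over the 35 femur libraries were listed by Pearson's r, with r over the 32 ulna libraries beside it; libraries of one group share their injury and time, so these are descriptions. Mmp9 ran most like Clcn7 (0.964 in femur and 0.648 in ulna), Fam109a (0.958 and 0.699), Acp5 (0.956 and 0.899), Hyal1 (0.954 and 0.507) and Tm4sf19 (0.95 and 0.781). For Mmp13 they included Atp6v1c1 (0.945 and 0.591), Spp1 (0.944 and 0.927), Atp6ap1 (0.935 and 0.569) and Atp6v1a (0.93 and 0.655). Timp1 ran most like Bax (0.962 and 0.792), Dab2 (0.958 and 0.922), Lgmn (0.951 and 0.875), Fkbp1a (0.951 and 0.941) and Clec4n (0.948 and 0.77). The genes nearest Adamts4 were Arf6 (0.947 and 0.703), Fem1b (0.942 and 0.472), Tm4sf1 (0.939 and 0.874), Fam129b (0.937 and 0.907) and Adck4 (0.928 and 0.732). Nearest Mmp3 were Hilpda (0.9 and 0.656), Upp1 (0.896 and 0.662), Zfand2a (0.895 and 0.654), Tgif1 (0.871 and 0.671) and Fem1b (0.871 and 0.338). Mmp12 had Tmed8 (0.842), Lhfpl2 (0.841), Capg (0.84), Fut4 (0.832) and Ifnar1 (0.829) in femur, and was not tested in ulna.

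Calls in the authors' deposited table were set beside these for the members that both tested, 34 to 37 at each time. The call was the same for 31 to 35 of them at every time, and 0 were called in opposite directions. Over all members in the authors' deposited table, 26 of 38 were called higher and 9 lower at 14 d after full fracture. At 7 d in ulna 27 of 35 were called higher and 4 lower. The share of all genes called in that table was not counted. The median gap between the log2 differences of the 2 sources was 0.0184 to 0.0889.

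The other 9 members passed the filter in neither bone, and no test was made of them. Mmp10, a stromelysin, reached the highest mean of these, 0.631 scaled RPKM at 14 d after full fracture. Adamts19 reached 0.399 in ulna and 0.161 in femur, Mmp24 0.369 and 0.292, and Mmp21 0.275 and 0.202. The collagenases Mmp1a and Mmp1b, of which the annotation lists Mmp1a as a polymorphic pseudogene, reached 0.134 and 0.0170 in ulna, against 0.0678 and 0 in femur. Adamts13, the protease of von Willebrand factor, reached 0.0974 in femur, Mmp20 of tooth enamel 0.0608 in ulna, and Mmp7, of epithelia, 0.0305 in femur. These are group means. Mmp12 and Adamts16 were tested in femur and in the fit of both bones, and not in ulna alone.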

How the data were processed

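RNA was extracted from pulverized bone sections, depleted of ribosomal RNA and sequenced as short single reads, per the labels' protocols; the time labels also carry the word periosteum, although the protocol describes whole sections. Reads were processed with STAR 2.4.2a, Subread, featureCounts 1.4.6, DESeq2 and the mm10 build, per the submitters' processing notes, and neither the annotation nor the use of strand is given in the sources used here. The authors deposited RPKM per gene and library in tables for each time, with their own log2 fold changes and adjusted p-values beside them, per the file headers. Intact libraries repeated across tables were used once.

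From the deposited RPKM, values were scaled by the median of ratios within a bone (factors 0.830 to 1.13 in femur and 0.898 to 1.10 in ulna, and 0.778 to 1.17 over both bones). Genes were kept if 5 or more libraries reached 0.5 scaled RPKM, and tested on log2(scaled RPKM + 0.1) with limma 3.58.1 (trend and robust) in R 4.3.3, one fit per bone and one over both for comparisons between bones. P-values were two-sided and adjusted over all genes by Benjamini-Hochberg, with 0.05 as the threshold. These fold changes understate changes of low genes. The fits were tested on simulated data. 88.6 to 91.3% of values worth under 20 reads came out whole within 0.01 reads. In each bone 27 gene names that a spreadsheet had turned into dates (0.106 and 0.105% of RPKM) were left out. Samples were grouped by their labels and table names, and 3 labelled samples were not analysed here.

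The members and lists were chosen with earlier results of these data known. Any member could be named; full statistics went to the 4 largest rises and falls per comparison with intact bone (adjusted p under 0.05, the higher mean 1 scaled RPKM or more), and to 3 each way elsewhere. Alternatives were the RPKM as deposited, upper-quartile scaling, a pseudocount of 1, no filter, a filter at 1, 1 fit of both bones and each library left out. 1 gene among those that ran most like Mmp13 is not reported here.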

Additional observations from a re-analysis of the deposited data

Results flagged for a closer look

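Over 114 sets of values (a member in a group of 4 to 10 libraries), 4 had a library far from the rest by Dixon's criterion, and chance alone flags about 1 in 20. Adamts17 was 0.4995 scaled RPKM in fractured femur library 3 at 4 h, with the next lowest at 0.875. Mmp19 was 29.72 in fractured femur library 2 at 1 d, and the next highest was 14.7. Timp3 was 14.76 in stress-fractured ulna library 1 at 5 d, where the next lowest was 18.9. Adamts20 was 0.5224 in intact femur library 2, and the next lowest was 1.09.

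The response to full fracture minus that to stress fracture was tested as an interaction in limma. Listed here are 23 pairs of a member and a time, a capped list and not the count of calls. It holds at most the 3 largest called differences each way at each time, among members with a group mean of 1 scaled RPKM or more. The full counts of calls are given above. At 4 h the log2 difference of the responses was 2.372 for Mmp19, 1.693 for Mmp3 and 1.579 for Adamts1, and on the low side -1.397 for Timp4, -1.268 for Mmp9 and -1.204 for Mmp28. At 1 d it was 0.9642 for Adamts7, 0.8343 for Mmp19 and 0.5063 for Adamts1, with -2.301 for Adamts8, -2.139 for Timp4 and -1.876 for Adamts18 below 0. At 3 d it was 1.371 for Adamts16 and 0.4298 for Adamts1, beside -2.742 for Adamts8, -2.16 for Timp4 and -1.299 for Mmp16. At 7 d Adamts16 reached 3.758, Adamts3 1.218 and Mmp19 0.9511, while Adamts8 was -3.45, Timp4 -2.437 and Adamts5 -1.657. Adamts16 passed the filter on low values through fractured femora alone, so its 2 values are descriptions and no test. These values compare femur with ulna as well as one injury with the other.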

How the results depend on the processing

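The alternatives were run for the counts of called members and for the differences chosen for full statistics. These were the 4 largest called rises and falls per comparison with intact bone, and 3 each way elsewhere. None of these log2 differences changed sign under any alternative. The other differences given above were not put through the alternatives. Total counts of called members stayed within 1.5 times of the reported count except for the last steps in ulna. The split by direction moved more on the RPKM as deposited: at 7 d against 3 d in femur to 7 higher and 7 lower, beside the reported 12 and 2, at 14 d against 7 d to 13 and 8, beside 9 and 10, and for intact ulna minus intact femur to 5 and 17, beside 1 and 23. At 5 d against 3 d, where 3 members were called, 1 was called on the RPKM as deposited and 5 with a pseudocount of 1. With a library left out that count ran from 1 to 7, with 1 without library 5 at 3 d or without library 2, 3 or 4 at 5 d, and 7 without library 5 at 5 d. At 7 d against 5 d, where 2 were called, it ran from 1 to 2, with 1 without library 4 at 7 d. The cause was not tested.

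Some calls among the differences chosen for full statistics were lost. Over all left-out libraries 2137 values kept their call and 69 lost it. Adamts14 at 1 d in ulna lost its call in 11 alternatives and at 5 d against 3 d in 10, Adamts3 at 5 d against 3 d in 6, Mmp25 at 7 d in ulna in 9, and Adamts5 at 7 d against 3 d in femur in 8. For full minus stress fracture, Mmp19 at 1 d lost it in 18, Adamts1 at 3 d in 16 and Adamts1 at 1 d in 1. Timp3 in ulna was not called at 1 d without library 1 or 4, or at 7 d without library 1. Adamts17 at 4 h in ulna had an adjusted p of 0.0507 without library 2. Adamts20 in ulna at 3 d, against intact and against 1 d, was not called in 1 fit of both bones.

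With a pseudocount of 1 the log2 differences of low genes shrank, to -1.63 for Timp4 at 1 d and 2.29 for Adamts16 at 7 d in femur. The median of all genes at 7 d in femur was -0.28 on the RPKM as deposited, beside -0.08 with the reported scaling, so small differences depend on the scaling. The count of members called without each femur library that stood apart was 8 higher and 20 lower at 4 h, 10 and 15 at 1 d, and 21 and 8 at 7 d; in ulna at 7 d it was 26 and 3 without library 4 and 24 and 3 without library 5. No paired analysis was possible because the columns of the tables carry no animal numbers that tie an injured limb to an intact one. Depth limits the members under about 0.5 scaled RPKM, which were given no test.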
